A study of Caenorhabditis elegans with 6 samples.

Results

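The 6 genes described here encode the calcium-activated potassium channels of Caenorhabditis elegans: kcnl-1, kcnl-2, kcnl-3 and kcnl-4 of the small-conductance (SK) class and slo-1 and slo-2 of the large-conductance (SLO) class. They were taken by gene name, as every probe set whose only gene symbol was 1 of the 6, which gave 7 probe sets of 22548 tested and 6 genes of 17138. The annotation lists the symbol of kcnl-1 and of kcnl-2 under 2 gene identifiers each, and these probe sets were counted as having 1 symbol. The neuronal samples held poly(A) RNA of the PVD and OLL sensory neurons of L3/L4 larvae (3 arrays), obtained by mRNA tagging: PAB-1, a protein that binds poly(A) tails, carried a 3X FLAG tag and was expressed from the ser-2prom3B promoter. They were set against total RNA of whole larvae of the same stage (3 arrays). All larvae were grown at 25 °C, and both kinds of RNA were amplified with the same NuGEN WT-Pico kit and hybridised to 1-colour Affymetrix C. elegans arrays. Tissue, RNA type (poly(A) against total) and the pull-down by the FLAG tag, used for the neuronal RNA, changed together between the groups. They cannot be told apart.

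Calcium-activated potassium channels let potassium leave the cell when intracellular calcium rises, and so couple calcium entry to a drop in excitability. SK channels sense calcium through calmodulin bound to the channel and do not need depolarisation to open, whereas the BK channel SLO-1 responds to calcium and to depolarisation together. In C. elegans, SLO-1 limits transmitter release and is the target of the anthelmintic emodepside, and SLO-2 carries outward current in motor neurons and body wall muscle. PVD neurons are branched nociceptors of the body wall and OLL neurons are mechanosensory neurons of the head.

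Values are RMA signals on a log2 scale, 1 per probe set and array. The arrays had medians between 3.72 and 3.89 in the PVD and OLL group and between 3.59 and 3.67 in the whole animal group. The background level of an array was taken from 32 bacterial and yeast control probe sets. It was 2.44, 2.28 and 2.44 in PVD and OLL replicates 1, 2 and 3, against 3.09, 3.43 and 2.95 in the whole animal replicates, so the whole animal arrays had the higher background. Replicate 3 stood somewhat apart in both groups: across probe sets it correlated with its group's other arrays at 0.954 and 0.961 for PVD and OLL and at 0.938 and 0.940 for the whole animal, against 0.988 and 0.973 between replicates 1 and 2. Of 14 markers of the PVD and OLL neurons, 10 were called higher and 0 lower in the pull-down (limma, 11 and 0 at an unadjusted p under 0.05). Over all genes 8.12% were called higher and 4.65% lower. The calls of deg-3 (log2 difference 4.27 ± 0.38) and mec-3 (2.23 ± 0.31) held with any single array left out. Of the other called markers, asic-1 lost its call in 6 of 6 such runs, degt-1 and del-1 in 5, and hpo-30 and egl-46 in 3. These runs called 5 to 9 markers higher, and 4 were called with values below 3.43 set to that level. The markers ser-2 and F49H12.4 had means of 2.91 and 2.75 in the PVD and OLL group, against 2.19 and 2.72 in the whole animal, and were not called. The share of RNA from other cells in the pull-down was not tested, and more cells of a type and more RNA per cell cannot be told apart in these samples.

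Of the 6 genes, kcnl-4 was the 1 called higher in the PVD and OLL samples (adjusted p under 0.05), where 8.12% of all genes were called higher. Its signal was 6.63, 6.83 and 5.36 in PVD and OLL replicates 1, 2 and 3, against 3.50, 3.21 and 3.17 in whole animal replicates 1, 2 and 3. All 3 PVD and OLL arrays lay above all 3 whole animal arrays, and PVD and OLL replicate 3 was the low one of its group. The means were 6.28 ± 0.80 and 3.29 ± 0.18 (SD, n = 3 each), a log2 difference of 2.98 ± 0.38 (SE; 95% confidence interval 2.10 to 3.87; limma adjusted p = 0.00615), or 7.92-fold as measured, with 2 of the 3 whole animal arrays above background. Its probe set exceeded background by 4.20, 4.56 and 2.92 on the PVD and OLL arrays. On the whole animal arrays it lay 0.41 above background in replicate 1, 0.22 above in replicate 3 and 0.22 below in replicate 2. The transcript was therefore read well above background in the neuronal RNA and at about background in the whole larva.

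The kcnl-4 call held with any single array left out, with log2 differences between 2.71 and 3.44 and adjusted p up to 0.0341. It also held under 5 other scalings of the arrays (2.61 to 4.23). Without replicate 3 of both groups, a setting added after seeing the data, the difference was 3.38 (adjusted p = 0.00448). With every value below 3.43, the highest background level, set to that level, also added later, it was 2.82 and no longer called (adjusted p = 0.0534). The summed signal of 15 pan-neuronal markers was likewise lowest in replicate 3 of the pull-down, at 11.88, 11.77 and 10.98 on the log2 scale in PVD and OLL replicates 1, 2 and 3, against 10.49, 10.33 and 10.40 in the whole animal replicates. Of these markers 8 were called higher and 0 lower (12 and 0 at an unadjusted p under 0.05). The shares of all genes were 8.12% and 4.65% (16.8% and 14.7% unadjusted). The synaptic vesicle gene rab-3 rose by 2.12 ± 0.19 by its brighter probe set (adjusted p = 0.00402) and differed by 0.63 by the other (adjusted p = 0.238). All 15 pan-neuronal markers were above background on every PVD and OLL array and 13 on every whole animal array, and their part in the kcnl-4 difference was not tested.

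**Figure D1:**
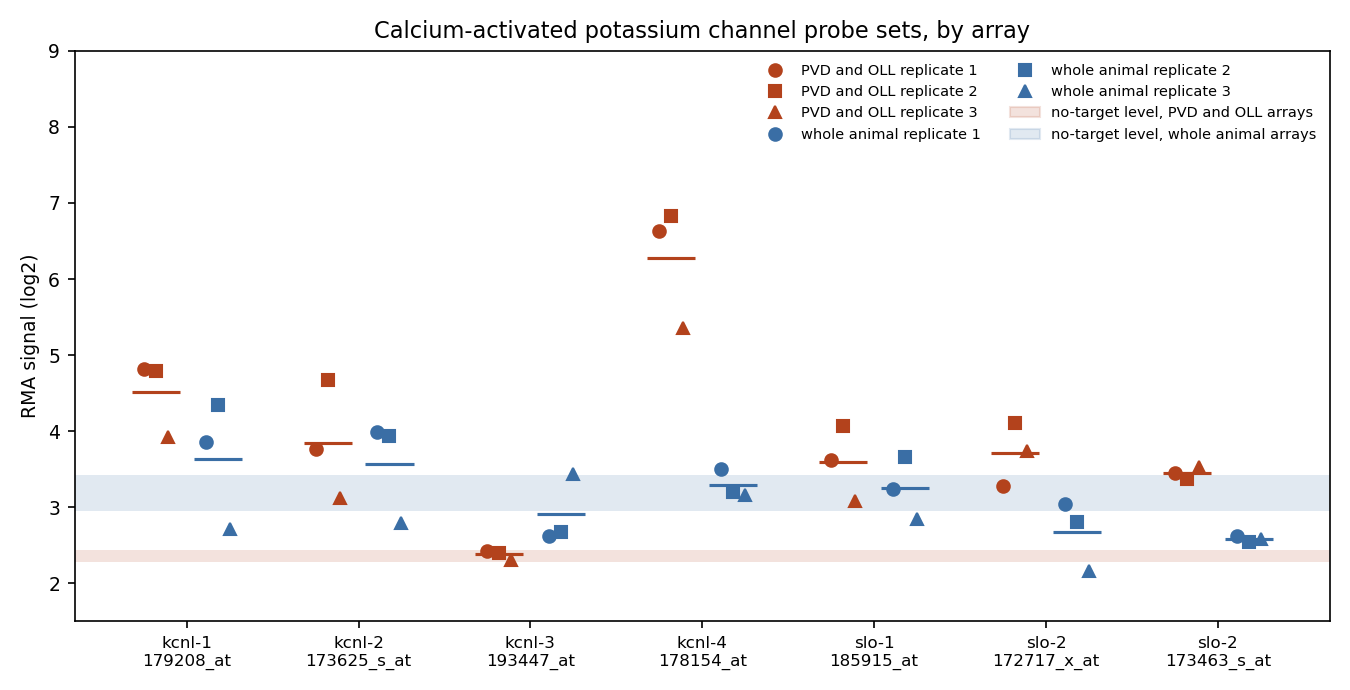
Signal (log2, vertical axis) of the 7 probe sets of the 6 channel genes on each array; points are arrays, short lines group means, and shaded bands the range of the no-target background level in each group. The 3 PVD and OLL points of kcnl-4 lie between 5.36 and 6.83, above all whole animal points, while kcnl-3 lies near the background bands in both groups.

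The other SK genes were not called. kcnl-1 had signals of 4.82, 4.80 and 3.92 in PVD and OLL replicates 1, 2 and 3, against 3.86, 4.35 and 2.71 in the whole animal. The groups overlapped, since PVD and OLL replicate 3 lay below whole animal replicate 2. The kcnl-1 signal lay 0.24 below background on whole animal replicate 3, and 0.77 and 0.92 above it on whole animal replicates 1 and 2. The log2 difference was 0.87 ± 0.45 (95% confidence interval -0.17 to 1.91; adjusted p = 0.216), and it ranged from 0.41 without whole animal replicate 3 to 1.23 without whole animal replicate 2. The interval thus includes no difference as well as a rise of more than 3-fold, and these arrays do not tell which.

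kcnl-2, an SK channel gene known to affect egg laying, had signals of 3.76, 4.67 and 3.12 in PVD and OLL replicates 1, 2 and 3, against 3.99, 3.93 and 2.80 in the whole animal. The groups overlapped over most of their range. On whole animal replicate 3 the kcnl-2 signal lay 0.16 below background, and on whole animal replicates 1 and 2 it lay 0.90 and 0.50 above. Its log2 difference was 0.28 ± 0.46 (95% confidence interval -0.80 to 1.36; adjusted p = 0.702). The sign turned without PVD and OLL replicate 2 (-0.13) and without whole animal replicate 3 (-0.11), so no direction can be given. Its single probe set belongs to the type that can match several transcripts (name ending in _s_at).

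kcnl-3 was read near background in both groups. Its signals were 2.42, 2.41 and 2.31 in PVD and OLL replicates 1, 2 and 3, against 2.62, 2.68 and 3.44 in the whole animal. The groups did not overlap, with the whole animal arrays higher, but only 1 array of each group exceeded its background level. The log2 difference was -0.53 ± 0.26 (95% confidence interval -1.13 to 0.07; adjusted p = 0.196), and with the arrays centred on the bioB and bioC controls it was 0.71. The no-target controls showed a median difference of -0.50 between the same groups, close to that of kcnl-3.

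slo-1, which encodes the BK channel, was not called. Its signals were 3.62, 4.07 and 3.08 in PVD and OLL replicates 1, 2 and 3, against 3.25, 3.66 and 2.84 in the whole animal. In both groups replicate 2 was the highest and replicate 3 the lowest array, and the groups overlapped. The log2 difference was 0.34 ± 0.32 (95% confidence interval -0.40 to 1.08; adjusted p = 0.476). All 3 PVD and OLL arrays exceeded background, as did 2 of the whole animal arrays, and the upper end of the interval lies well under the lower end of that of kcnl-4.

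slo-2, whose channel is opened by depolarisation together with calcium and chloride in C. elegans, had 2 probe sets, and they fell on different sides of the threshold. The brighter one (name ending in _x_at) had signals of 3.28, 4.10 and 3.74 in PVD and OLL replicates 1, 2 and 3, against 3.04, 2.80 and 2.16 in the whole animal. The groups did not overlap. All 3 PVD and OLL arrays were above background and all 3 whole animal arrays below it, so the whole animal level is known only as a bound. Taken against each whole animal array's own background level, slo-2 was at least 1.47-fold higher by this probe set, and it was not called (measured means 3.71 ± 0.41 and 2.67 ± 0.46, SD, n = 3 each; adjusted p = 0.0645). That bound depends on the level chosen: with values below 3.43 on any array set to 3.43, the log2 difference was 0.33 (adjusted p = 0.484).

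The dimmer slo-2 probe set (name ending in _s_at) had signals of 3.45, 3.37 and 3.53 in PVD and OLL replicates 1, 2 and 3, against 2.62, 2.54 and 2.58 in the whole animal. The spread within each group was small and the groups lay apart. Against each whole animal array's own background level it was at least 1.22-fold higher (measured means 3.45 ± 0.08 and 2.58 ± 0.04, SD, n = 3 each; adjusted p = 0.0204). Its log2 difference lay between 0.83 and 0.91 with any single array left out, but the call did not survive leaving out PVD and OLL replicate 1 (adjusted p = 0.0767) or 2 (adjusted p = 0.0801) or whole animal replicate 1 (adjusted p = 0.0520) or 2 (adjusted p = 0.0584). With the arrays centred on their medians it was 0.67 (adjusted p = 0.0580). With values below 3.43 set to that level it was 0.04 (adjusted p = 0.646), so the bound of this probe set too holds only for the background level of each array. Both slo-2 probe sets are of the types that can match several transcripts, so the value for the single gene is uncertain.

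**Figure D2:**
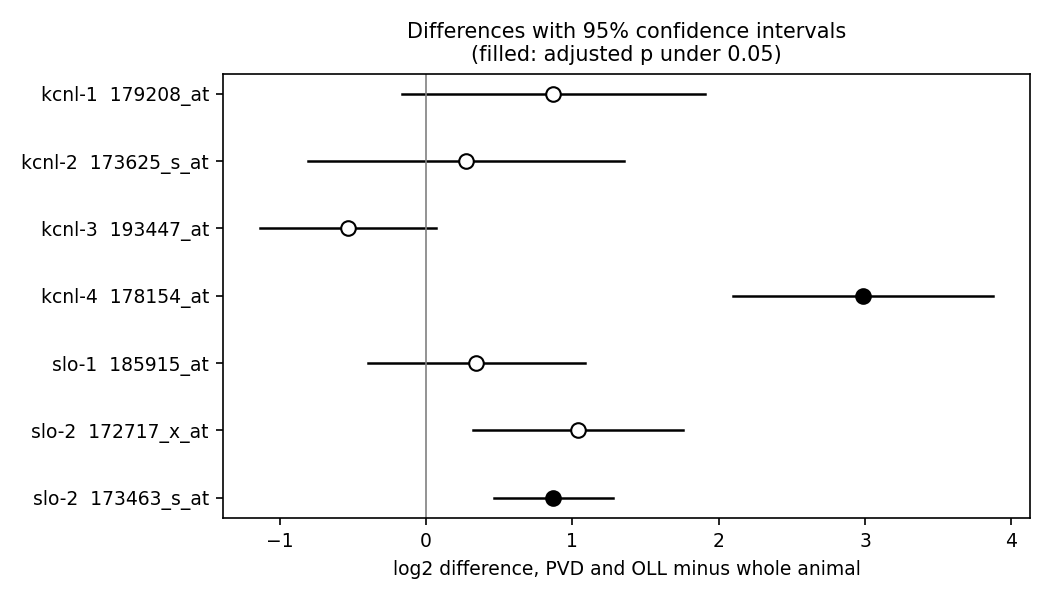
Log2 difference, PVD and OLL minus whole animal (horizontal axis), for each of the 7 probe sets, with limma's 95% confidence interval as the line; filled points have an adjusted p under 0.05 over all tested probe sets. The interval of kcnl-4, 2.10 to 3.87, lies to the right of the other 6, and those of kcnl-1, kcnl-2, kcnl-3 and slo-1 include 0.

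Counted by the brightest probe set of each gene, 1 of the 6 genes was called higher and 0 lower, against a background of 8.12% and 4.65% of all genes (limma). At an unadjusted p under 0.05, 2 were higher and 0 lower, against 16.8% and 14.7% of all genes. The groups did not overlap for 3 of the 6 genes, kcnl-4 and slo-2 higher and kcnl-3 lower, and for 40.3% of all genes. By probe set, 2 of 7 were called higher, against 9.31% of all probe sets, and 4 of 7 had groups that did not overlap, against 40.5%. The median log2 difference of the 6 genes was 0.61, and over all genes it was -0.07. The count of called members is too small to set the family apart from other genes, and kcnl-4 was the only gene called by its brightest probe set. For slo-2 only the dimmer probe set was called, and the brighter one was not (limma adjusted p = 0.0204 and 0.0645).

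To ask whether kcnl-4 differed between the groups by more than its relatives, members were compared on the same array. The signal of each other member was subtracted from that of kcnl-4. Subtraction removes a shift common to all log2 signals of an array, but not an effect of background on signals near it. Background was higher on the whole animal arrays. Only the change of this value between groups is read here, since the offset between probe sets has no meaning. The value for kcnl-4 minus kcnl-1 was 1.82, 2.04 and 1.44 in PVD and OLL replicates 1, 2 and 3, against -0.36, -1.14 and 0.46 in the whole animal, a difference of 2.11. Against kcnl-2 the difference was 2.71, and against slo-1 it was 2.64. The values against slo-2 (1.95) and kcnl-3 (3.52) are no measured differences, since slo-2 lay below background on all whole animal arrays and kcnl-3 on 2 of 3 arrays of each group. The kcnl-4 signal of the whole animal was itself near background, which touches every pair. On whole animal replicate 3, kcnl-1, kcnl-2 and slo-1 were also below background, so their differences are uncertain too. In each of the 5 pairs all PVD and OLL arrays lay above all whole animal arrays. The exact two-sided permutation test gave p = 0.1 for each pair (adjusted over the 5 pairs, p = 0.1), which is the smallest p that 3 against 3 arrays allow, so the test cannot reach 0.05. With single arrays left out, the differences ranged from 1.72 to 2.52 against kcnl-1, from 2.49 to 3.04 against kcnl-2 and from 2.39 to 2.84 against slo-1. That kcnl-4 stood out was known from earlier results of these data, so these pairs are a description.

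**Figure D3:**
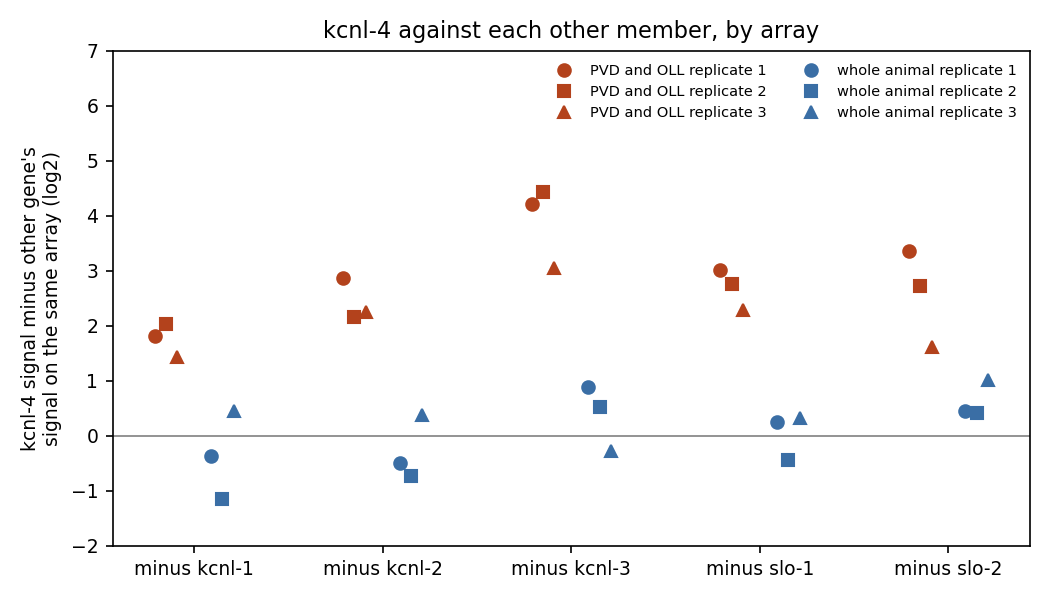
Signal of kcnl-4 minus the signal of each other member on the same array (log2, vertical axis), by the brightest probe set of each gene; points are arrays. For all 5 pairs the PVD and OLL points lie above the whole animal points, on average by 2.11 for kcnl-1, 2.71 for kcnl-2 and 2.64 for slo-1, while slo-2 and kcnl-3 were mostly below background in the whole animal.

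Over the 6 arrays, the genes whose values were most like those of kcnl-4 were inx-19, mec-19, clec-64, math-3 and ZK177.2. Likeness was the Euclidean distance between log2 values after each gene's own mean was subtracted, over 17132 other genes, and it was 0.51, 0.55, 0.61, 0.62 and 0.78 for these 5. inx-19 encodes an innexin, a gap junction subunit, and had signals of 7.36, 6.94 and 5.86 in PVD and OLL replicates 1, 2 and 3, against 4.11, 3.57 and 3.44 in the whole animal. mec-19, known as a negative regulator of the MEC-4 touch channel, had 7.03, 6.55 and 5.54 in the PVD and OLL replicates, against 3.67, 3.48 and 3.09 in the whole animal. All 5 shared with kcnl-4 a low PVD and OLL replicate 3, and their log2 differences lay between 2.62 and 3.06. Both traits largely follow from choosing genes by closeness to kcnl-4 on these same arrays. A likeness over 6 arrays in 2 groups mostly repeats the difference between the groups.

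**Figure D4:**
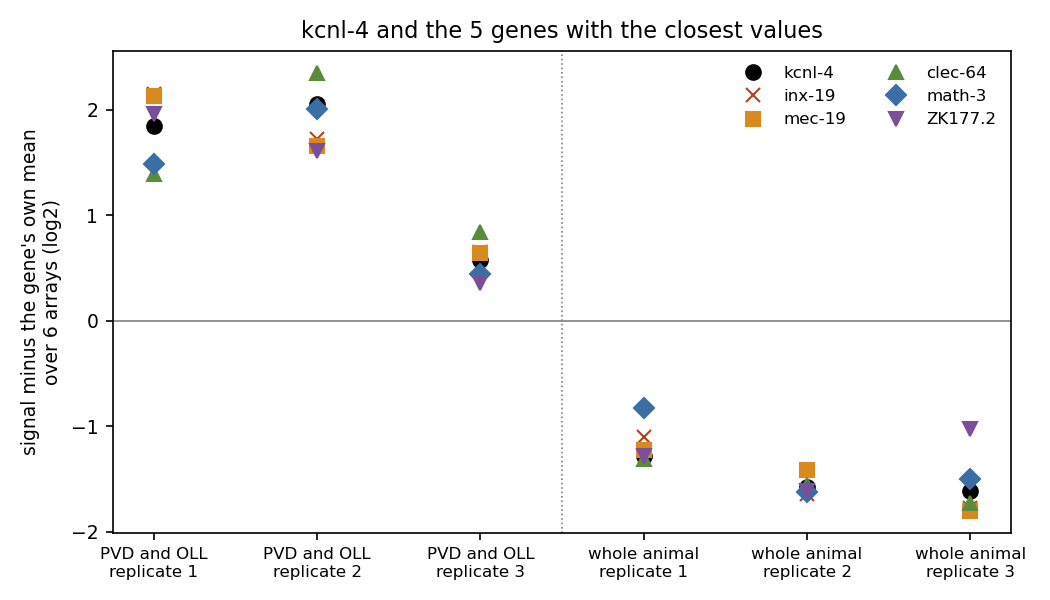
Signal of kcnl-4 and of its 5 nearest genes on each array, each minus its own mean over the 6 arrays (log2, vertical axis). The 6 genes lie close together on every array, and replicate 3 is the lowest of the PVD and OLL arrays for each, which largely follows from their choice by closeness.

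Genes that act with these channels and, for comparison, potassium channels of other classes were read from 5 lists. Of 98 genes 93 were measured: 15 were called higher and 3 lower, 19.4% in all, against 12.8% of all genes. The comparison lists held 18 and 45 of the measured genes, with 4 higher calls in each, so this share is not one of channel partners alone. By brightest probe set, no gene of these lists had a larger difference than kcnl-4. Among SLO partners and regulators, 3 of 7 were called higher and 0 lower by limma, while unadjusted p-values under 0.05 gave 5 and 0. The shares of all genes were 8.12% higher and 4.65% lower, and 16.8% and 14.7% by unadjusted p. The median log2 difference of this list was 0.77. islo-1, whose ankyrin-repeat product anchors SLO-1 in muscle, had signals of 4.72, 4.69 and 4.96 in the PVD and OLL replicates, against 3.14, 3.00 and 3.80 in the whole animal. It rose by 1.48 ± 0.26 (adjusted p = 0.0127), but leaving out PVD and OLL replicate 2 gave an adjusted p of 0.0537. scyl-1, known to promote SLO-2 expression, rose by 1.54 ± 0.21 (adjusted p = 0.00685). The count of 3 includes the hnRNP U family gene hrpu-1, which was listed by family and whose own link to SLO channels is uncertain. It rose by 1.46 ± 0.29 (adjusted p = 0.0189). This call did not hold without PVD and OLL replicate 1 or whole animal replicate 1 or 2 (the highest adjusted p was 0.0612), and a second hrpu-1 probe set differed by 0.74 (adjusted p = 0.0581).

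ctn-1 encodes alpha-catulin, which is needed to place SLO-1 in the membrane, and its brightest probe set differed by 0.44 ± 0.45 (adjusted p = 0.521). Another ctn-1 probe set differed by 1.41 (adjusted p = 0.0140) and the remaining one by 0.33 (adjusted p = 0.472), so the gene's probe sets disagree. islo-1 and the dystrophin complex genes of this list act in body wall muscle as well. Of 11 body wall muscle markers, 2 were called higher and 1 lower, against 8.12% and 4.65% of all genes. The log2 of their summed signal was 13.47 to 13.68 in the PVD and OLL group, against 13.19 to 13.72 in the whole animal group. The called ones, named after their values were seen, were myo-3 at 1.05 (adjusted p = 0.0188), mup-2 at 0.72 (adjusted p = 0.0376) and unc-27 at -0.77 (adjusted p = 0.0458), the last turning to 0.47 when arrays were centred on bioB and bioC. With single arrays left out, myo-3 lost its call in 3 of 6 runs (limma adjusted p up to 0.0869). In such runs mup-2 and unc-27 lost theirs in 6 of 6 (up to 0.132 and 0.133). The myosin heavy chain gene unc-54 had means of 10.68 and 10.21 in these groups (adjusted p = 0.314), and all 11 markers were above background on every array. The part of muscle RNA in the islo-1 difference was not tested. The SLO-1 subunit gene bkip-1 and the listed genes erg-28 and adr-1 were not measured here.

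The calcium that opens these channels enters through voltage-gated calcium channels or is released from stores. Of 11 such genes, 2 were called higher and 1 lower, with a median of 0.44 (all genes 8.12%, 4.65% and -0.07). At an unadjusted p under 0.05 they numbered 4 and 1, against 16.8% and 14.7% of all genes. unc-2, the CaV2-type channel gene that supports transmitter release, had signals of 5.93, 6.64 and 6.35 in the PVD and OLL replicates, against 5.16, 4.04 and 3.83 in the whole animal. It rose by 1.96 ± 0.38 (adjusted p = 0.0177), a call that did not hold without replicate 2 of either group (adjusted p up to 0.0764). A dimmer unc-2 probe set, below background on all whole animal arrays, was at least 1.77-fold higher (means 3.98 and 1.86; adjusted p = 0.00518), and the remaining ones differed by 0.43 (adjusted p = 0.270) and -0.03 (adjusted p = 0.929). The beta subunit gene ccb-1 rose by 1.81 ± 0.42 (adjusted p = 0.0318), a call that did not hold without PVD and OLL replicate 1 or 2 or whole animal replicate 1 (the highest adjusted p was 0.117).

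The gene of the ryanodine receptor, unc-68, whose channel releases calcium from the sarcoplasmic reticulum, had a log2 difference of -0.96 ± 0.23 (adjusted p = 0.0365), which became 0.28 when arrays were centred on bioB and bioC. Its call held without whole animal replicate 3 and was lost without any other single array (adjusted p up to 0.136), and its other probe sets differed by -0.32 (adjusted p = 0.312) and 0.12 (adjusted p = 0.787). The L-type channel gene egl-19 differed by 0.62 ± 0.23 (adjusted p = 0.109), the T-type gene cca-1 by 0.44 ± 0.23 (adjusted p = 0.219) and the IP3 receptor gene itr-1 by -0.48 ± 0.24 (adjusted p = 0.205), or by 0.76 when arrays were centred on bioB and bioC (adjusted p = 0.170). The other itr-1 probe sets lay in the opposite direction at 0.16 (adjusted p = 0.647), 0.18 (adjusted p = 0.556) and 1.14 (adjusted p = 0.0815), the last with groups that did not overlap, so no direction is given for itr-1. A second egl-19 probe set differed by 1.07 (adjusted p = 0.0218).

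Among calmodulin and calcium sensor genes, 2 of 12 were called higher and 1 lower, with a median of 0.67 (all genes 8.12%, 4.65% and -0.07). At an unadjusted p under 0.05 they numbered 7 and 1, against 16.8% and 14.7% of all genes. cal-4, a calmodulin-related gene, had signals of 6.75, 7.01 and 6.40 in the PVD and OLL replicates, against 3.62 to 4.28 in the whole animal. It rose by 2.79 ± 0.26 (adjusted p = 0.00402), and the call held with any single array left out. The neuronal calcium sensor gene ncs-2 rose by 1.54 ± 0.21 (adjusted p = 0.00656), also with any single array left out. cmd-1 encodes calmodulin itself, the calcium sensor of SK channels. Its brightest probe set had signals of 10.82 to 11.10 in the PVD and OLL group, against 9.71 to 10.62 in the whole animal group, and differed by 0.73 ± 0.27 (adjusted p = 0.113). Its other 2 probe sets differed by 2.33 (adjusted p = 0.00402) and 1.58 (adjusted p = 0.0182). cal-7, with means of 2.21 and 3.04, was above background on 1 array of each group. It had a log2 difference of -0.83 ± 0.21 (adjusted p = 0.0421), which became 0.41 when arrays were centred on bioB and bioC, and its call held without whole animal replicate 3 but not without any other single array (adjusted p up to 0.134).

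Potassium channels of other classes are given for comparison. Of 18 voltage-gated and inward-rectifier genes, 4 were called higher and 1 lower, with a median of 0.48. The Shaw-type gene shw-3 rose by 1.88 ± 0.39 (adjusted p = 0.0227, not held without PVD and OLL replicate 2 or whole animal replicate 1, up to 0.0821). The ERG-type gene unc-103 rose by 1.70 ± 0.36 (adjusted p = 0.0226, not held without PVD and OLL replicate 1 or 2 or whole animal replicate 2, up to 0.0910). kvs-5 rose by 1.63 ± 0.42 (adjusted p = 0.0435, held only without whole animal replicate 1, otherwise up to 0.126), while a second probe set near background differed by -0.23 (adjusted p = 0.615). The other probe sets of unc-103 differed by 0.67 (adjusted p = 0.542) and 0.01 (adjusted p = 0.972). The gene called lower was kvs-4, with means of 2.49 and 3.32, above background on 2 arrays of each group. Its sign also turned when arrays were centred on bioB and bioC, and its call held without whole animal replicate 3 but not without any other single array (adjusted p up to 0.127). Of 45 TWK-type leak channel genes, 4 were called higher and 0 lower by limma, while unadjusted p-values under 0.05 gave 10 and 4. Over all genes 8.12% and 4.65% were called, and 16.8% and 14.7% had such unadjusted p-values, so 4 higher calls of 45 lie near the background. The median log2 difference of this list was -0.03. twk-8 rose by 1.54 ± 0.36 (adjusted p = 0.0313) and held its call only without whole animal replicate 1 (otherwise adjusted p up to 0.0965). twk-49 rose by 1.48 ± 0.35 (adjusted p = 0.0330) and held its call without replicate 3 of either group only (otherwise adjusted p up to 0.0994). twk-17 rose by 1.39 ± 0.34 (adjusted p = 0.0354) and lost its call without PVD and OLL replicate 1 or 2 or whole animal replicate 2 (the highest adjusted p was 0.127). On its other 2 probe sets, both below background on every whole animal array, twk-17 was at least 2.35-fold (adjusted p = 0.00633) and at least 1.96-fold higher (adjusted p = 0.0109), counted against each array's own background level.

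**Figure D5:**
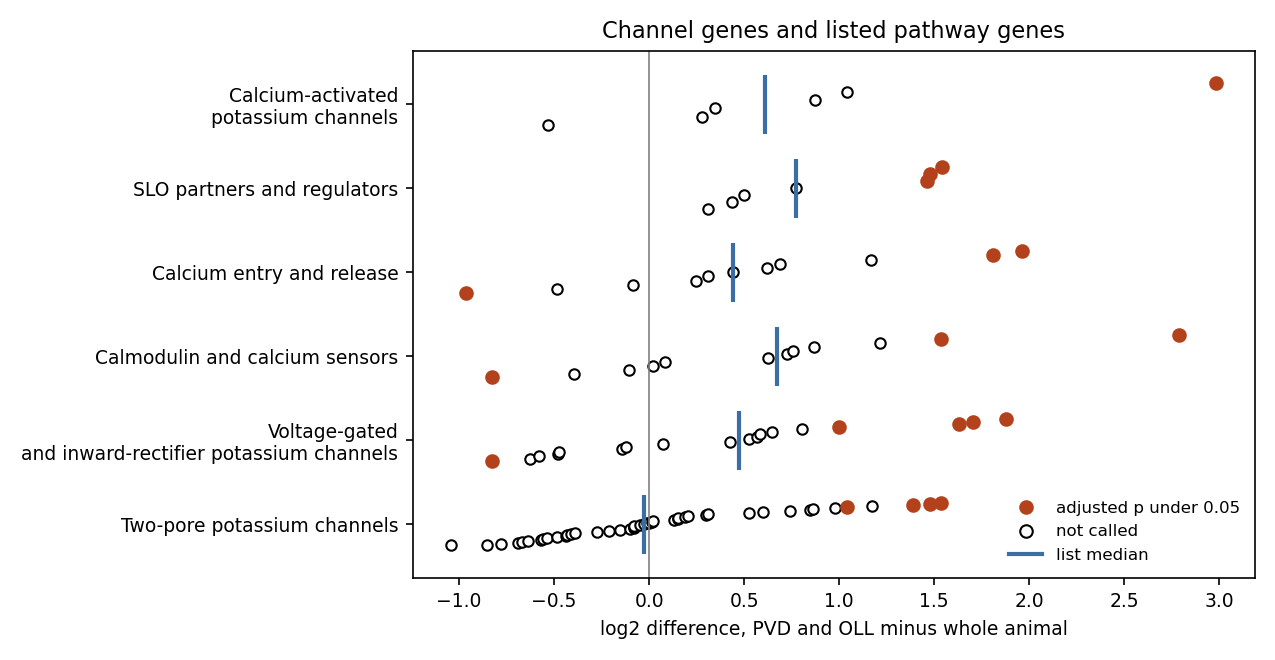
Log2 difference, PVD and OLL minus whole animal (horizontal axis), of each measured gene by list, with filled points for an adjusted p under 0.05 and a vertical bar at the list median. kcnl-4 at 2.98 and cal-4 at 2.79 lie to the right of every other gene shown, and the median of the 6 calcium-activated channels is 0.61.

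Markers of other cells gave the following counts of calls. Higher and lower calls by limma numbered 2 and 0 of 8 for pharynx, 0 and 2 of 8 for intestine and 4 and 1 of 8 for epidermis. For glia they numbered 1 and 0 of 7, and for germline 0 and 2 of 8. At an unadjusted p under 0.05 they were 3 and 1, 1 and 2, 5 and 1, 1 and 0, and 0 and 2. Over all genes 8.12% were called higher and 4.65% lower (16.8% and 14.7% unadjusted). The higher epidermis calls, named after their values were seen, were bli-1 at 2.15, nhr-23 at 1.65, lin-26 at 1.56 and rol-6 at 1.15. Second probe sets gave 3.12 for bli-1 (adjusted p = 0.00980), 1.85 for nhr-23 (adjusted p = 0.00702) and 1.52 for lin-26 (adjusted p = 0.0192). The list median was 1.08, and the gene called lower was col-19 at -2.92. The higher epidermis calls fell to 0 without PVD and OLL replicate 1 or 2, and after quantile normalization. The lower intestine calls, named likewise, were the yolk protein genes vit-2 at -3.09 (adjusted p = 0.0421) and vit-6 at -3.66 (adjusted p = 0.0345). By contrast, 6 of the 8 intestine markers had differences above 0, and the list median was 0.34. These lower intestine calls fell to 0 without any 1 PVD and OLL array or whole animal replicate 1. The lower germline calls were rme-2 at -2.24 (adjusted p = 0.0405) and pgl-3 at -1.18 (adjusted p = 0.0318). The pgl-3 difference turned to 0.07 when arrays were centred on bioB and bioC. These germline calls fell to 0 without any single array except PVD and OLL replicate 2. The pharyngeal calls, named after their values were seen, were the transcription factor genes peb-1 at 3.49 ± 0.40 (adjusted p = 0.00512) and pha-4 at 3.23 ± 0.57 (adjusted p = 0.0134), both larger as measured than the kcnl-4 difference. The pha-4 call was lost when PVD and OLL replicate 2 was left out (adjusted p = 0.0515). A second probe set differed by 2.05 for peb-1 (adjusted p = 0.0174) and by 1.87 for pha-4 (adjusted p = 0.00456). A sum of signals follows mainly the brightest markers of its list. The log2 of the summed epidermis signal was 11.71 to 12.31 in the PVD and OLL group, against 12.25 to 12.31 in the whole animal group, and that of the pharynx was 9.84 to 10.19, against 9.39 to 9.56. For glia it was 7.94 to 7.98 in the PVD and OLL group, against 6.62 to 7.34 in the whole animal group, with 6 of 7 glia markers above background on every PVD and OLL array and 1 on every whole animal array. For intestine it was 11.60 to 11.69, against 11.42 to 12.01 in the whole animal, and for germline 9.04 to 9.36, against 9.45 to 9.87. The part of such cells in the channel differences was not tested.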

How the data were processed

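The authors deposited log2 values, 1 per probe set and array, made by RMA from array intensities, per the submitters' processing notes. Its software was not given in the sources used here, and no label states the log base: log2 is RMA's usual scale and fits the range of 1.21 to 13.9. Scanner files and probe coordinates were not used here. The 77 control probe sets were left out, and 22548 of 22625 entered the fit. Symbols were taken from GEO's platform annotation and updated through RefSeq (assembly WBcel235, names only): 20810 probe sets had 1 name, 843 several and 895 none. The probe set with the highest mean over 6 arrays stood for a gene.

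Differences are PVD and OLL minus whole animal from limma 3.58.1 (lmFit, eBayes) in R 4.3.3, Benjamini-Hochberg adjusted over all tested probe sets, called at adjusted p under 0.05, two-sided. Errors are moderated SE. The background is the 95th percentile of 32 bacterial and yeast control probe sets. For a group below it on every array, "at least" folds use it wherever it exceeded the signal. These folds compare group means and carry no error. The code was tested on simulated data.

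Only the neuronal titles say biological replicate, so the spread behind the p-values may be partly technical. The number of arrays limits precision. The members and lists were chosen with earlier results of these data known. Named were all members; up to 3 rises and 2 falls called per pathway list; fixed pathway and marker genes; and the 5 genes nearest each called member. Other scalings, filters, variance models, a replicate block and left-out arrays were tried.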

Additional observations from a re-analysis of the deposited data

How the results depend on the processing

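The kcnl-4 difference kept its direction in all 19 alternatives and its call in 18. The exception, added after seeing the data, set all values below 3.43 to that level, which leaves 31.1% of probe sets with no spread at all. The kcnl-4 difference was then 2.82 (adjusted p = 0.0534), and 0 channel genes, 6 higher and 0 lower listed genes, and 669 higher and 198 lower probe sets were called. Scaling mattered for the others. Centring on the bioB and bioC controls put the median of all probe sets at 1.22, against -0.03 as deposited, and called 12752 probe sets higher and 66 lower, with 5 channel genes and 65 listed genes higher and 0 lower. The differences were then 2.11 for kcnl-1, 1.52 for kcnl-2, 1.58 for slo-1, 2.28 for slo-2 and, reversed but not called, 0.71 for kcnl-3. Median centring moved that median to -0.23, with 1952 probe sets and 6 listed genes lower; proteasome centring moved it to 0.08, with 1 listed gene lower. Calls were 68.5% higher as deposited, 54.2% after quantile normalization (1192 probe sets and 7 listed genes higher), 52.6% after cyclic loess (1195 and 5), 43.1% with median centring, 78.7% with proteasome centring and 99.5% with the bioB and bioC controls. Array weights called 4035 probe sets higher and 2767 lower, 27 and 9 listed genes, and 2 channel genes, slo-2 being the second (1.03, adjusted p = 0.0328). The mean of a gene's probe sets also called 2 channel genes (slo-2 at 0.95, adjusted p = 0.0244, from probe sets below background on every whole animal array). Leaving out the _s_at and _x_at types, which removed kcnl-2 and slo-2, gave 1186 higher and 600 lower.

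Over all probe sets the deviations of same-numbered arrays correlated at -0.05, -0.07 and -0.10, and no array correlated best with its own number. Such values cannot show that same-numbered arrays shared nothing. The signals of kcnl-1, kcnl-2 and slo-1 were lowest in replicate 3 of both groups. A block on the replicate number lowered their SE from 0.45 to 0.24, 0.46 to 0.26 and 0.32 to 0.20. That of kcnl-4 fell from 0.38 to 0.32, while those of kcnl-3 (0.26 to 0.27) and slo-2 (0.31 to 0.32) rose slightly. With the replicate number as a block, 1224 probe sets were higher, 405 lower and 0 listed genes lower, and kcnl-4 kept its call (adjusted p = 0.0253). With 1 array left out, probe set counts ranged from 577 to 2017 higher and from 208 to 1222 lower, those of listed genes from 4 to 17 and from 0 to 4, and kcnl-2 from -0.13 to 0.64. Without replicate 3 of both groups, also added later, 3300 and 1842 probe sets were called, with 8 listed genes lower. Cause was not tested for any of these changes unless stated. Signals of kcnl-3, slo-1 and slo-2 lay close to background, as did those of kcnl-1 and kcnl-2 in the whole animal, which limits what can be said of them.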
